A study of Mus musculus with 6 samples.

Results

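The angiopoietin and Tie receptor axis was followed in lung RNA through 6 genes: the ligands *Angpt1* and *Angpt2*, the receptors *Tek* (Tie2) and *Tie1*, the phosphatase gene *Ptprb* (VE-PTP) and the matrix protein gene *Svep1*. They were taken by gene symbol, 6 of the 54532 genes with deposited counts. The 3 GR+/+ and 3 GRdim/dim mice shared the background 129/SvEv x C57BL/6 and were 10 to 16 weeks old. GRdim/dim mice carry a point mutation of the glucocorticoid receptor (GR) gene *Nr3c1* in all cells that impairs dimerization of the receptor, and GR+/+ mice were their wild-type littermate controls. Every mouse of both groups had undergone hemorrhagic shock (HS), with the mean arterial pressure held at 35 mmHg over 1 h, followed by retransfusion and 4 h of resuscitation in a mouse intensive care unit with ventilation, norepinephrine and colloids. The 6 libraries hold no lung without HS, so a level before HS cannot be read from them. Each library came from the lung of 1 mouse, by poly(A) capture of whole-tissue RNA. The study's methods give 2 females and 1 male for GR+/+ and 1 female and 2 males for GRdim/dim.

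Angiopoietins are secreted glycoproteins that bind Tie2, a receptor tyrosine kinase of endothelial cells. Angiopoietin-1, made mainly by cells around the vessel such as pericytes, smooth muscle cells and fibroblasts and also by megakaryocytes, activates Tie2 and thereby supports cell survival and tight junctions between endothelial cells. Angiopoietin-2 is stored and released by endothelial cells, mostly acts as a context-dependent antagonist at Tie2, and is known as a marker of vascular leak in shock and acute lung injury. Tie1 binds no angiopoietin with high affinity but forms complexes with Tie2, VE-PTP removes phosphate from Tie2, and Svep1 is a large extracellular matrix protein known as a ligand of Tie1.

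Reads of the 2 ligands, and of the 2 receptors, can be told apart by sequence, and the most alike stretches of their coding regions are shown for that reason. The coding regions of *Angpt1* (1497 bases) and *Angpt2* (1491 bases) were 64.1% identical over 1482 aligned bases, and their longest identical run was 17 bases. No window of 31 bases was common to both. The 90 coding bases below, from exon 6 of each gene, encode part of the fibrinogen-like domain with which angiopoietins bind Tie2. They differ at 20 positions, shown in capitals (5′ to 3′ on the coding strand, build GRCm38, chr15:42468159-42468248 minus strand for *Angpt1* and chr8:18699071-18699160 minus strand for *Angpt2*).
Angpt1: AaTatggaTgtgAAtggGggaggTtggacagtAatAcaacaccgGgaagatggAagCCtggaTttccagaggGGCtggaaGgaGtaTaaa
Angpt2: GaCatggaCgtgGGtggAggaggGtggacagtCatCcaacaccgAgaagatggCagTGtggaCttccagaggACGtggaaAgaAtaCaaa

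The receptor genes were of like distance. The coding regions of *Tek* (3372 bases) and *Tie1* (3405 bases) were 62.2% identical over 3260 aligned bases, with a longest identical run of 18 bases and again no common window of 31 bases. Their most alike 90 bases lie in the tyrosine kinase domain, across exons 18 and 19 of both genes, and differ at the 14 positions in capitals (plus strand within chr4:94859664-94863681 for *Tek*, minus strand within chr4:118474112-118474320 for *Tie1*).
Tek: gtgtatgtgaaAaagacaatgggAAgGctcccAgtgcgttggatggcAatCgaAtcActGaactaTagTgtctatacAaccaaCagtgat
Tie1: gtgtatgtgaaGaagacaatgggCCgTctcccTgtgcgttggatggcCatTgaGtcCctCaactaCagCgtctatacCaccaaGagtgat

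Library totals were 15687734 to 32082940 counts, and the counts of the 6 genes lay between 359 (*Angpt2*, GRdim/dim replicate 3) and 26885 (*Ptprb*, GR+/+ replicate 3), so that all 6 passed the filter on low counts. Squared differences between replicates of a genotype were 20.9 to 70.1 times those that count sampling alone would give (chi-square per degree of freedom). Replicates were used as separate mice. GR+/+ replicate 3, the deepest library, had the lowest summed level of the endothelial, pericyte, smooth muscle and fibroblast markers of all 6 libraries. Levels are given as CPM, the counts of a gene per 1e+06 counts of its library after TMM scaling. Differences are log2 fold changes of GRdim/dim over GR+/+. They were tested by the quasi-likelihood method of edgeR, and p-values were adjusted by Benjamini-Hochberg over the 16568 genes tested. Differentially expressed genes (DEGs) had an adjusted p under 0.05 and a log2 fold change above 0.5 or below −0.5. In whole-lung RNA, fewer cells of a type and less RNA per cell cannot be told apart.

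*Angpt1* was the member that stood farthest apart between genotypes. It was lower in each GRdim/dim lung than in any GR+/+ lung, at 0.582 times the GR+/+ level, but it did not reach the adjusted threshold of edgeR. None of the 6 genes was a DEG by edgeR (0 of 6), where 28 of 16568 genes (0.169%) were called, 0.0724% of all with a higher and 0.0966% with a lower level in GRdim/dim lungs. At an unadjusted p under 0.05 there was 1 of 6, against 9.6% of all genes. DESeq2 called 1 of 6, against 1.56% of the 17318 genes to which it gave an adjusted p (0.82% with GRdim/dim lower). Both times the gene was *Angpt1*. The log2 fold change was below 0 in 5 of 6 genes, as in 49.1% of all genes, with *Angpt2* the exception, and the median of the 6 was −0.15 beside 0.0064 over all genes.

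**Figure D1:**
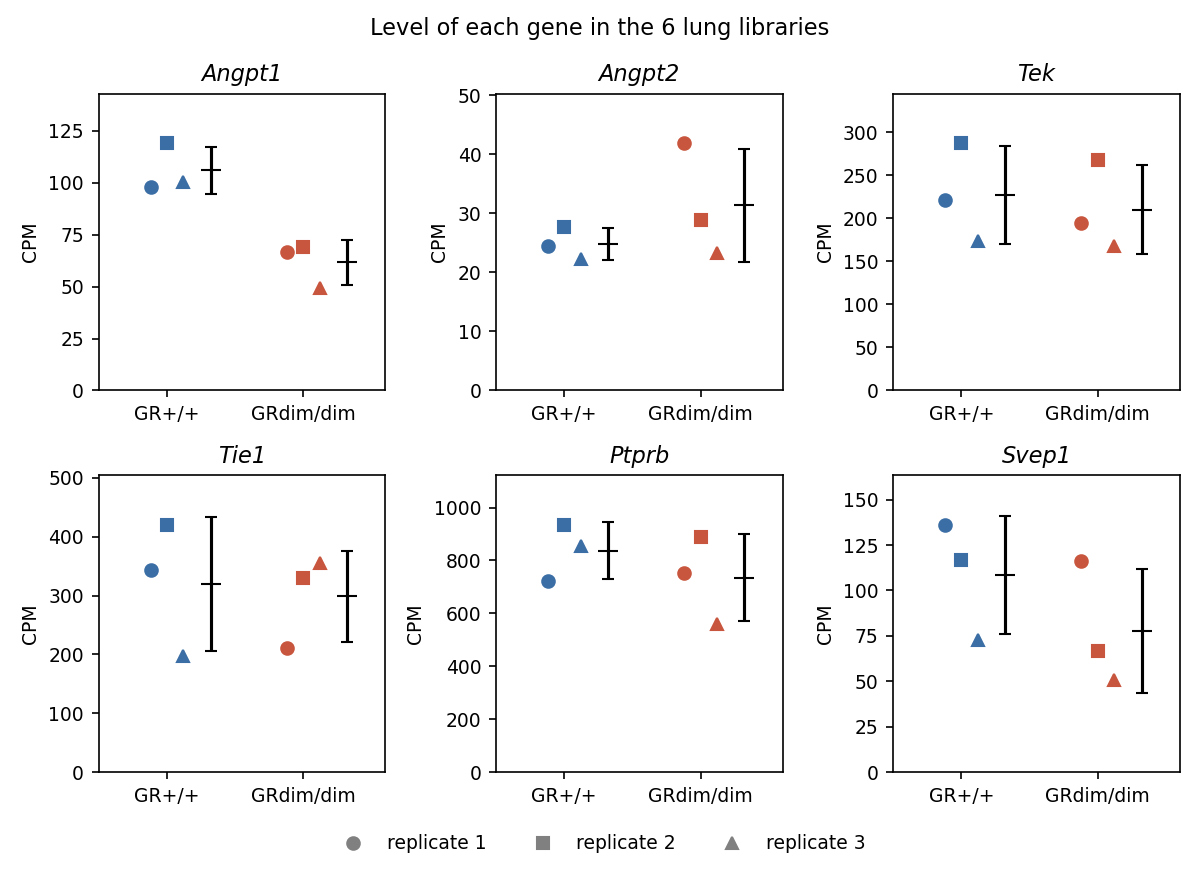
Level of each gene in CPM (linear axes from 0) in the 3 GR+/+ and 3 GRdim/dim lung libraries, with the mean ± SD in black. *Angpt1* is the gene whose groups do not overlap, at 98.2 to 119 CPM in GR+/+ and 49.3 to 69.1 CPM in GRdim/dim lungs.

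*Angpt1* (ENSMUSG00000022309, chr15:42424723-42676977, minus strand, GRCm38) encodes the Tie2 agonist. Its level was 98.2, 119 and 101 CPM in GR+/+ replicates 1, 2 and 3. In GRdim/dim replicates 1, 2 and 3 it was 66.5, 69.1 and 49.3 CPM. The lowest GR+/+ lung was thus above the highest GRdim/dim lung, and replicates within a genotype differed less than the genotypes did. Groups that do not overlap were found in 14.8% of all genes, in 7.77% with GRdim/dim higher and in 7.05% with GRdim/dim lower. The means were 106 ± 11.5 CPM (SD, n = 3) and 61.6 ± 10.7 CPM (SD, n = 3). The log2 fold change was −0.78 (SE 0.18, 95% interval −1.18 to −0.38). In edgeR its adjusted p was 0.175 (unadjusted 0.00139, rank 131 of 16568), whereas DESeq2 gave an adjusted p of 0.0293 for the same difference. Without the filter on low counts, edgeR also called it (adjusted p = 0.012). The call for *Angpt1* therefore depended on the method and on the filter, while its direction was the same in each. Without any one library, the log2 fold change stayed between −0.87 and −0.64.

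*Angpt2* (ENSMUSG00000031465, chr8:18690263-18741562, minus strand) encodes the context-dependent antagonist. It was measured at 24.4, 27.7 and 22.2 CPM in GR+/+ replicates 1 to 3 and at 41.9, 28.9 and 23.2 CPM in GRdim/dim replicates 1 to 3. Only GRdim/dim replicate 1 was clearly above the GR+/+ range, and GRdim/dim replicate 3 lay within it. The mean was 24.8 ± 2.75 CPM in GR+/+ and 31.3 ± 9.59 CPM in GRdim/dim (SD, n = 3 each). The log2 fold change was 0.34 (SE 0.24, 95% interval −0.18 to 0.86, adjusted p = 0.720 in edgeR), and the difference was not larger than the spread between mice. It dropped to 0.080 without GRdim/dim replicate 1. This library also had the highest summed level of macrophage, monocyte and neutrophil markers, 1237 CPM, and of lymphatic endothelial markers, 1378 CPM. Few genes carried these sums: *Lyve1* alone was 1154 CPM of the lymphatic one, and *S100a8* and *S100a9* were 397 and 348 CPM of the other. The part of these cells in the *Angpt2* level of this library was not tested.

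*Tek* (ENSMUSG00000006386, chr4:94739289-94874976, plus strand) encodes Tie2, the receptor of both ligands. Its level was 221, 288 and 174 CPM in GR+/+ replicates 1, 2 and 3, and 194, 268 and 168 CPM in GRdim/dim replicates 1, 2 and 3. The ranges covered each other almost entirely. Means were 228 ± 57.0 CPM and 209.9 ± 51.8 CPM (SD, n = 3 each), a log2 fold change of −0.12 (SE 0.24, 95% interval −0.64 to 0.41, edgeR adjusted p = 0.936).

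*Tie1* (ENSMUSG00000033191, chr4:118471191-118490061, minus strand), which encodes the partner receptor of Tie2, varied more between mice of one genotype than between genotypes. GR+/+ replicates 1, 2 and 3 had 343, 420.3 and 197 CPM, and GRdim/dim replicates 1, 2 and 3 had 211, 330.2 and 356 CPM. The lowest and the highest of the 6 values were both GR+/+ lungs. The log2 fold change was −0.10 (SE 0.29, 95% interval −0.74 to 0.55, edgeR adjusted p = 0.959). For both receptors, leaving out 1 library was enough to turn the sign: *Tek* came to 0.09 and *Tie1* to 0.16 without GR+/+ replicate 2, *Tek* to 0.02 without GRdim/dim replicate 3, and *Tie1* to 0.11 without GRdim/dim replicate 1.

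*Ptprb* (ENSMUSG00000020154, chr10:116275523-116389535, plus strand), which encodes the endothelial phosphatase that acts on Tie2, had the most counts of the 6 genes. It reached 721, 935 and 854 CPM in GR+/+ replicates 1 to 3 and 754, 889 and 562 CPM in GRdim/dim replicates 1 to 3. GRdim/dim replicate 3 was below the other libraries, and the remaining GRdim/dim lungs were inside the GR+/+ range. The log2 fold change was −0.19 (SE 0.22, 95% interval −0.68 to 0.30, edgeR adjusted p = 0.860), and it was −0.026 without GRdim/dim replicate 3.

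*Svep1* (ENSMUSG00000028369, chr4:58042442-58206859, minus strand) encodes the matrix ligand of Tie1. Its level was 136, 117 and 72.9 CPM in GR+/+ and 116, 66.6 and 50.8 CPM in GRdim/dim replicates 1 to 3. The groups overlapped, since GRdim/dim replicate 1 was close to the middle GR+/+ lung. Means were 109 ± 32.4 CPM and 77.8 ± 34.0 CPM (SD, n = 3 each), and the log2 fold change was −0.48 (SE 0.31, 95% interval −1.18 to 0.22, edgeR adjusted p = 0.699). It was −0.88 without GRdim/dim replicate 1, −0.28 without GR+/+ replicate 1 and −0.25 without GRdim/dim replicate 3 (edgeR adjusted p = 0.363, 0.986 and 0.808), so single mice moved this estimate more than that of *Angpt1*.

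**Figure D2:**
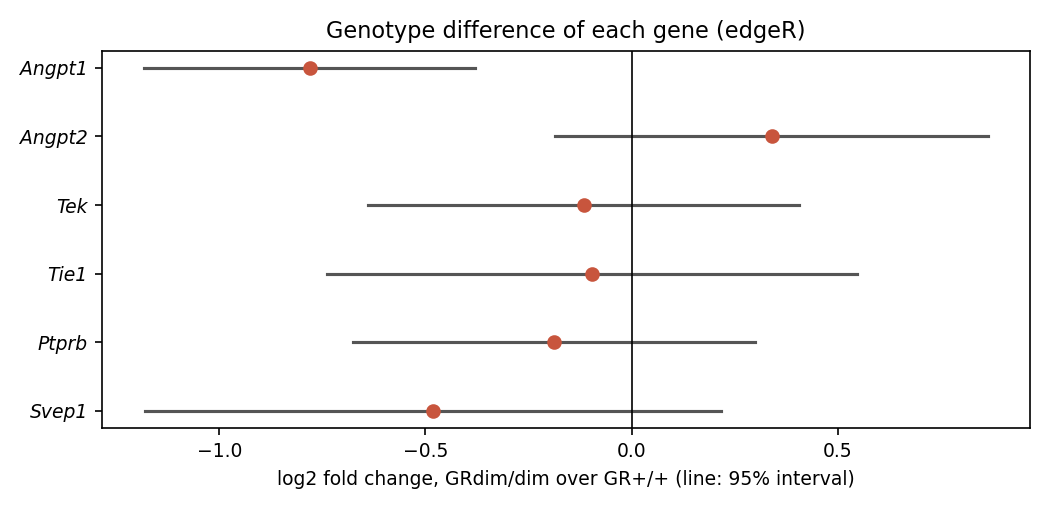
Log2 fold change of GRdim/dim over GR+/+ lungs for the 6 genes, with the 95% interval of the edgeR fit as a line and 0 as the vertical line. The interval of *Angpt1* (−1.18 to −0.38) lies below 0, before any adjustment for the number of genes, and the intervals of the other five hold 0.

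Per length, receptors and phosphatase were far above the ligands. In GR+/+ lungs the order by CPM per kilobase of exon was *Tie1* (65.1 ± 23.1), *Ptprb* (62.8 ± 8.11), *Tek* (48.3 ± 12.1), *Angpt1* (20.4 ± 2.21), *Svep1* (6.74 ± 2.01) and *Angpt2* (6.71 ± 0.746; SD, n = 3). *Tie1*, *Ptprb* and *Tek* overlapped as neighbours in this order, and so did *Svep1* and *Angpt2*. *Angpt1* overlapped neither the group above it nor the pair below it.

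GRdim/dim lungs had the same top 3 in the same order, *Tie1* at 60.8 ± 15.7, *Ptprb* at 55.1 ± 12.3 and *Tek* at 44.5 ± 10.99 CPM per kilobase. Below them, *Angpt1* was at 11.8 ± 2.06, *Angpt2* at 8.49 ± 2.60 and *Svep1* at 4.83 ± 2.11 CPM per kilobase (SD, n = 3). Here the ranges of *Angpt1* (9.48 to 13.3) and *Angpt2* (6.28 to 11.4) overlapped, which those of GR+/+ lungs (18.9 to 22.9 and 6.03 to 7.51) did not.

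**Figure D3:**
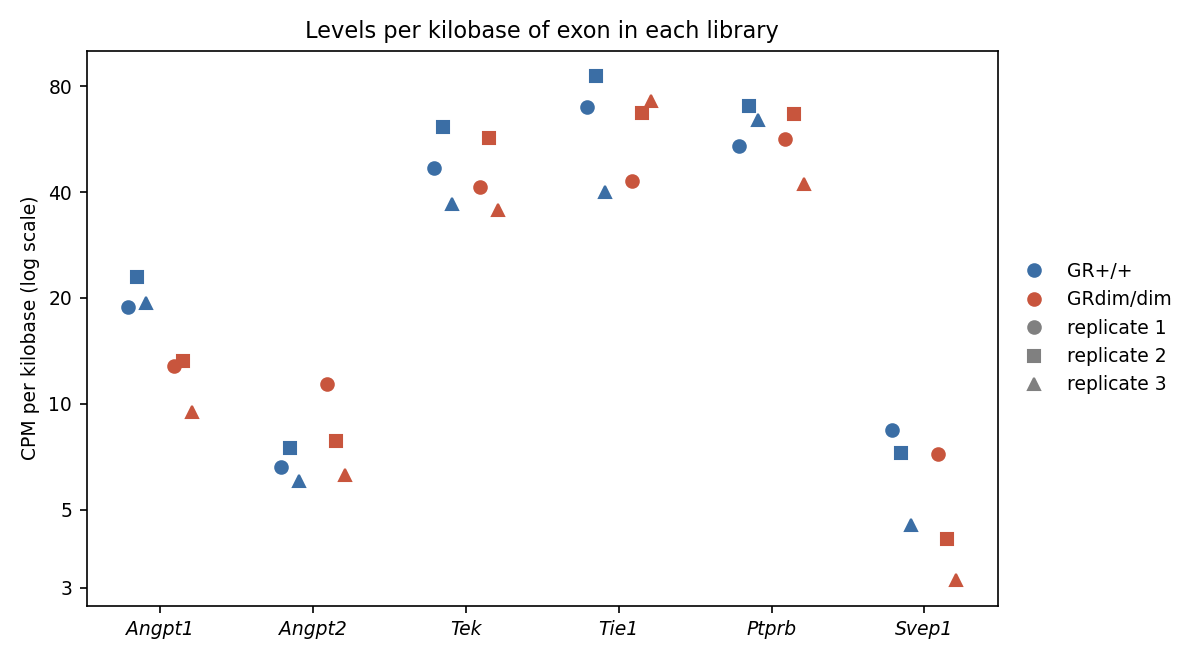
CPM per kilobase of exon (log axis) of the 6 genes in each library, blue for GR+/+ and red for GRdim/dim. *Tek*, *Tie1* and *Ptprb* lie between 35.6 and 85.5 in all 6 libraries, and the gap between *Angpt1* and *Angpt2* is narrower in the GRdim/dim lungs.

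Ratios between the genes were taken within each library, since a ratio does not depend on how libraries are scaled. The question was whether the balance of antagonist to agonist differed between genotypes. *Angpt2* per *Angpt1*, from counts per kilobase, was 0.350, 0.328 and 0.312 in GR+/+ replicates 1 to 3 and 0.889, 0.590 and 0.663 in GRdim/dim replicates 1 to 3. Every GRdim/dim lung was above every GR+/+ lung, and the agonist was still the more abundant transcript per length in all 6. The geometric means were 0.330 and 0.703, a 2.13-fold difference (1.09 on the log2 scale, with SDs of 0.084 and 0.305 in log2, n = 3 each). By a two-sided exact permutation test p was 0.1, the smallest that 3 against 3 can give, and 0.2 after adjustment over 4 ratios. Without any one library, the log2 difference stayed between 0.92 and 1.22.

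*Angpt1* per *Tek*, agonist relative to its receptor, was 0.403, 0.375 and 0.522 in GR+/+ and 0.310, 0.234 and 0.266 in GRdim/dim replicates 1 to 3. These groups did not overlap either. The difference was −0.68 on the log2 scale (a ratio of 0.625; exact permutation p = 0.1, adjusted 0.2). *Angpt1* is a part of both ratios, so they are not separate evidence.

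The endothelial genes showed no such separation among themselves. *Tie1* per *Tek* was 1.49, 1.40 and 1.08 in GR+/+ and 1.04, 1.18 and 2.03 in GRdim/dim lungs (exact permutation p = 0.9), with GRdim/dim replicate 3 above all others. *Ptprb* per *Tek* was 1.15, 1.15 and 1.73 in GR+/+ and 1.37, 1.17 and 1.18 in GRdim/dim lungs (exact permutation p = 1.0), with GR+/+ replicate 3 above all others.

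**Figure D4:**
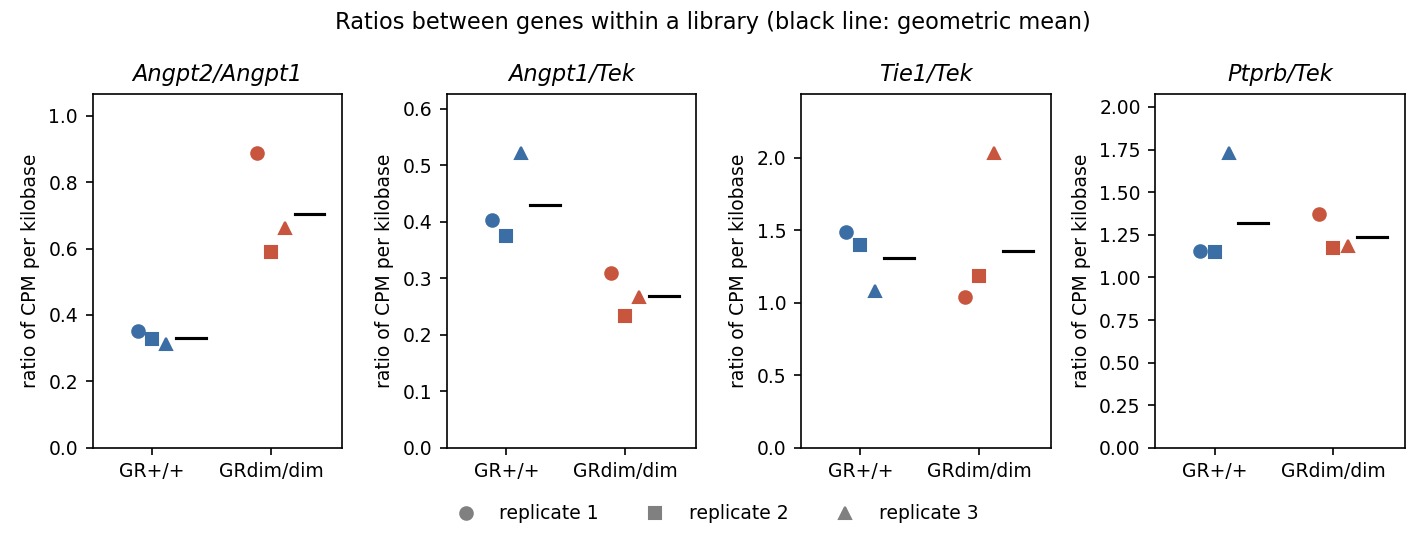
Ratios of CPM per kilobase within each library, from 0 on linear axes, with the geometric mean of each genotype as a black line. *Angpt2* per *Angpt1* is 0.312 to 0.350 in GR+/+ and 0.590 to 0.889 in GRdim/dim lungs, *Angpt1* per *Tek* does not overlap either, and the ratios among *Tie1*, *Ptprb* and *Tek* overlap.

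Genotype and sex were not balanced, and the sex of a given mouse is not among the labels. Expression of *Xist* against Y-linked genes split the libraries into 2 female and 1 male GR+/+ and 1 female and 2 male GRdim/dim mice, the numbers of the study's methods. Among the libraries of male pattern, *Angpt1* was 98.2 CPM in the GR+/+ lung and 49.3 and 66.5 CPM in the GRdim/dim lungs (log2 difference −0.78). Among those of female pattern it was 101 and 119 CPM against 69.1 CPM (−0.66). *Angpt1* was thus lower in GRdim/dim lungs within each sex, with 1 mouse in one arm of each comparison and hence no test. *Svep1* was lower within each sex as well (−0.83 and −0.47), *Tek* and *Tie1* differed in sign between the sexes, and *Angpt2* was higher in the single female GRdim/dim lung (28.9 against 22.2 and 27.7 CPM) but overlapped among males. With sex-linked expression as a covariate, *Angpt1* had a log2 fold change of −0.71 (edgeR adjusted p = 0.355).

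Other genes of the pathway were read as 5 lists, from shedding enzymes to transcription factors. Of 51 listed genes, 47 passed the filter and edgeR called 0 and DESeq2 1 of them. By direction, 24 were higher and 23 lower, with a median log2 fold change of 0.016 (0.0064 over all genes). At an unadjusted p under 0.05, 1 gene was higher (2.13%, against 4.91% of all genes) and 5 were lower (10.6%, against 4.68%). Groups did not overlap in 6 genes, each with GRdim/dim lower (12.8%, against 7.05%). These lists were also chosen with earlier results of these data known, so the shares are description only.

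The angiopoietin-like genes, relatives whose products do not bind Tie2, had the lowest median of the lists (−0.52, 1 of 5 tested higher and 4 lower). *Angptl7*, a secreted protein of matrix-rich tissues, was at 30.1, 24.0 and 10.8 CPM in GR+/+ and at 2.37, 3.12 and 7.23 CPM in GRdim/dim lungs. The groups did not overlap, and the log2 fold change was −2.36 (SE 0.48, edgeR adjusted p = 0.127, DESeq2 adjusted p = 5.74e-06), which makes it the gene that DESeq2 called. *Angptl4*, an inhibitor of lipoprotein lipase and the most abundant of this list per kilobase, was at 133, 124 and 85.1 CPM in GR+/+ and 78.3, 94.4 and 64.8 CPM in GRdim/dim lungs (−0.52, edgeR adjusted p = 0.469). Its groups overlapped.

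Among the transcription factors downstream of Tie2, *Foxo4* and *Foxo3*, forkhead factors that AKT holds out of the nucleus, were lower in each GRdim/dim lung. *Foxo4* was at 94.8, 101 and 101 CPM in GR+/+ and 59.8, 70.6 and 67.1 CPM in GRdim/dim replicates 1 to 3 (log2 fold change −0.59, SE 0.15, edgeR adjusted p = 0.237). *Foxo3* was at 160, 129 and 132 CPM against 98.3, 111 and 81.0 CPM (−0.53, SE 0.18, adjusted p = 0.366). *Foxo1*, the forkhead factor known to drive *Angpt2* in endothelial cells, had overlapping groups and a log2 fold change of 0.036. *Klf2*, a flow-responsive endothelial factor and the most abundant of this list per kilobase, had 49.2, 85.1 and 45.1 CPM in GR+/+ and 51.7, 219.5 and 138 CPM in GRdim/dim lungs. With GRdim/dim replicate 1 inside the GR+/+ range and the other two above it, its log2 fold change of 1.19 had an SE of 0.47 (edgeR adjusted p = 0.471).

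The shedding enzymes and other ligands gave 1 gene with an unadjusted p under 0.05, *Bace1*, a membrane-bound protease. It was at 28.5, 27.2 and 27.7 CPM in GR+/+ and 22.8, 18.7 and 17.4 CPM in GRdim/dim lungs, with no overlap (−0.50, SE 0.19, edgeR adjusted p = 0.441). *Mmp14*, a membrane-anchored metalloproteinase and the most abundant of the list per kilobase, overlapped (0.38, adjusted p = 0.731). The third angiopoietin, *Angpt4*, had 66 counts in all 6 libraries together and did not pass the filter, and *Lect2*, a ligand of Tie1, had 1 count.

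Signalling genes behind Tie2 were close to even. Of 25 docking and kinase genes, 13 were higher and 12 lower with a median of 0.016, and none had an unadjusted p under 0.05. Groups did not overlap in 2 of the 25, both with GRdim/dim lower, against 7.05% of all genes. These were *Ptpn11* (−0.34, edgeR adjusted p = 0.571) and *Pik3r1* (−0.29, edgeR adjusted p = 0.640). *Mapk3* (ERK1), the most abundant of the 25 per kilobase, had a log2 fold change of 0.062 (adjusted p = 0.966). Among the 9 integrin and VE-cadherin partners, 5 were higher and 4 lower, again with no unadjusted p under 0.05, and *Itgb1*, the most abundant per kilobase, was at 0.095 (adjusted p = 0.934).

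The cells of the lung were checked by 16 marker lists. Of their 134 tested genes, edgeR called 0 and DESeq2 8 (5.97%, against 1.56% of the genes with a DESeq2 adjusted p). At an unadjusted p under 0.05, 23 were higher (17.2%, against 4.91% of all genes) and 11 lower (8.21%, against 4.68%). The lists were chosen with earlier results of these data known, so these shares cannot show an excess and are description only. The gene given as the highest in CPM of a list is not corrected for length. All 18 endothelial markers were measured, with *Eng* the highest in CPM. Their summed level was 4973 to 7744 CPM in GR+/+ and 5170 to 5925 CPM in GRdim/dim lungs, and 6 were higher and 12 lower (median −0.20). The endothelial junction gene *Cdh5* (VE-cadherin) was at −0.20 (edgeR adjusted p = 0.883) and *Pecam1* at −0.44 (adjusted p = 0.541). The lists of capillary subtypes differed in sign, with 5 of 5 general capillary markers higher (median 0.46, *Plvap* the highest in CPM) and 2 of 6 aerocyte markers higher (median −0.19, *Tbx2* the highest in CPM). Of the lymphatic list, 4 of 5 tested markers were higher (median 0.27, *Lyve1* the highest in CPM), and *Ccl21a* was at 0.

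Cells known to produce angiopoietin-1 were compared in the same way. Pericyte markers summed to 272 to 659 CPM in GR+/+ and 465 to 560.2 CPM in GRdim/dim lungs (6 of 10 higher, median 0.11, *Pdgfrb* the highest in CPM). Smooth muscle markers summed to 263 to 660 CPM and 495 to 671 CPM (4 of 7 higher, median 0.079, *Acta2* the highest in CPM), and fibroblast markers to 3088 to 4624 CPM and 3552 to 3744 CPM (5 of 12 higher, median −0.073, *Inmt* the highest in CPM). For these 3 lists the summed levels overlapped between genotypes, and GR+/+ replicate 3 was lowest in each. Summed megakaryocyte and platelet markers were low but did not overlap, with 18.0 to 25.0 CPM in GR+/+ and 29.0 to 38.5 CPM in GRdim/dim lungs. Of 8 tested, 6 were higher (median 0.41, *Itga2b* the highest in CPM, *Gp1bb* at 0). The largest difference in CPM was that of 1 gene, *Pf4*, with means of 5.38 CPM in GR+/+ and 13.4 CPM in GRdim/dim lungs. The part of these cells in the *Angpt1* level was not tested.

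Lymphocyte markers, which are background to the axis, were higher in all 11 genes (median 1.07) and summed to 33.4 to 78.4 CPM in GR+/+ and 87.4 to 121 CPM in GRdim/dim lungs. Macrophage, monocyte and neutrophil markers had a median of 0.32 (7 of 11 tested higher and 4 lower, *Chil3* the highest in CPM). *Chil3* itself was lower without overlap (log2 fold change −0.88, edgeR adjusted p = 0.202), so the directions within this list were mixed. Erythroid markers had a median of 0.35 (4 of 5, *Hbb-bs*) and pulmonary vein cardiomyocyte markers of 0.29 (7 of 9 tested, *Myh6*). Epithelial and mesothelial lists were below 0, with medians of −0.25 for alveolar type 1 (*Ager*), −0.19 for alveolar type 2 (*Sftpc*), −0.24 for club and ciliated (*Scgb1a1*) and −0.062 for mesothelial cells (*Msln*). The named genes did not all follow the median of their list: *Myh6* was at −0.015, *Sftpc* at 0.17, *Scgb1a1* at 0.23 and *Msln* at 0.41. The part of the cells of these lists in the levels of the 6 genes was not tested.

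**Figure D5:**
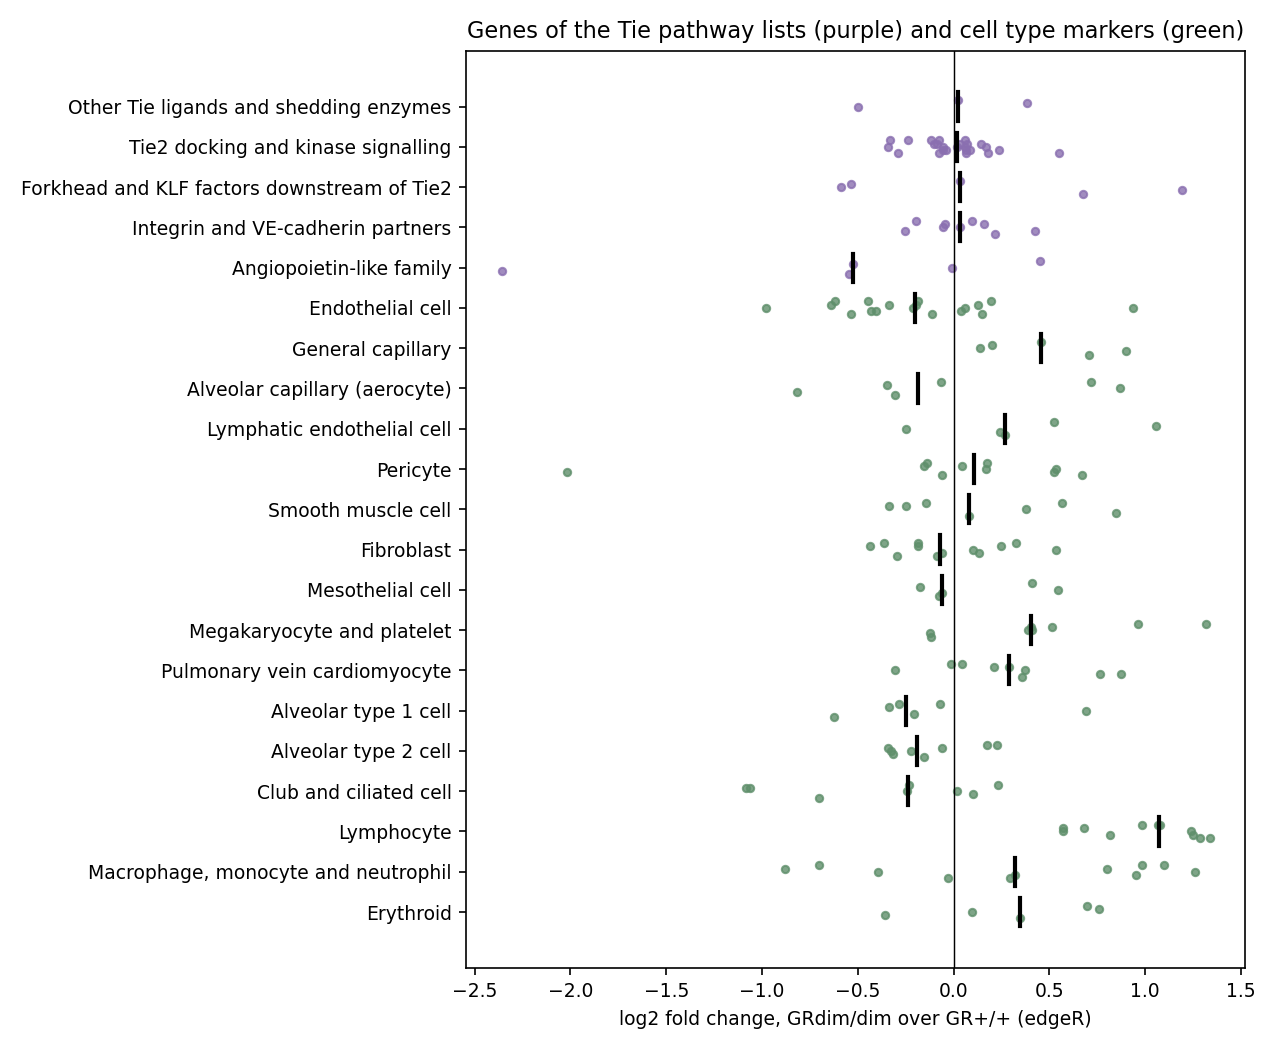
Log2 fold change of GRdim/dim over GR+/+ for each tested gene (points) of the 5 Tie pathway lists (purple) and 16 cell type marker lists (green), with the median of each list as a black bar. Most medians lie within 0.5 of 0 in either direction, and the angiopoietin-like genes (−0.52) and lymphocyte markers (1.07) lie outside.

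Finally, the genes most like each member over the 6 libraries were sought among 12236 genes with a mean of at least 5 CPM, by the root mean square difference of log2 CPM after centring each gene on its mean. For *Angpt1*, whose own variation was 0.433, they were *Zfp608* (0.120), *Zfp697* (0.123) and *Pld1* (0.126). Those nearest to *Angpt2* were *Csgalnact1* (0.046), *Dock4* (0.068) and *Irgm1* (0.079). *Plscr4* (0.074), *Mfsd2b* (0.077) and the endothelial sialomucin gene *Podxl* (0.077) were nearest to *Tek*, and *Slc22a17* (0.088), *Nos3* (0.098; endothelial nitric oxide synthase) and *Baiap3* (0.10) to *Tie1*. *Ptprb* was followed by *9230104L09Rik* (0.067), *Lbhd1* (0.075) and *Adgra3* (0.077), and *Svep1* by *Xdh* (0.057), *Card6* (0.12) and *Pcdhgc3* (0.12). No member was among the 3 nearest genes of another. The closest pair was *Tek* and *Ptprb* at a difference of 0.214, where *Ptprb* ranked 426 from *Tek*. All points come from the same 6 libraries and share their depth and scaling.

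Counts near the 6 genes could be touched by overlapping genes, since the use of strand in counting is not given in the sources used here. *Gm17473*, antisense to *Angpt1*, shares 737 exon bases with it and had 2 to 42 counts per library, against 764 to 3164 for *Angpt1*. *Mcph1* spans *Angpt2* on the opposite strand without shared exon bases (91 to 197 counts). *Gm26889*, opposite *Svep1*, shares 2244 exon bases and had 0 counts in every library. On the same strand, windows of 31 bases shared with another gene made up at most 1.54% of a member's transcripts (*Tie1*). Counting either strand, the share was 14.1% for *Angpt1* and 14.5% for *Svep1*, and at most 1.74% for the other four.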

How the data were processed

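Lung RNA was isolated with Trizol and sequenced after poly(A) capture by a commercial provider, as 1 library per mouse. The values deposited by the authors are whole-number read counts for each gene, not normalized or pooled, and the gene length in bases. Per the labels, the build is mm10 and DESeq2 was used by the authors. The aligner, the counting tool and the use of strand are not given in the sources used here. The gene coordinates and lengths of the 6 genes are identical in GENCODE M21 (GRCm38).

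Genotypes were taken from the sample labels. edgeR 4.0.16 (filterByExpr, TMM, glmQLFit with robust estimation, glmQLFTest) was run in R 4.3.3 on 16568 genes with Benjamini-Hochberg adjustment, and DESeq2 1.42.0 was the alternative. Standard errors and 95% intervals come from the edgeR fit. Log2 CPM used a prior count of 2. Ratios were compared by exact permutation in Python. Pairs of coding sequences were aligned with Biopython 1.88. The procedure was tested on simulated data. RLE scaling, library totals alone, no filter, at least 10 counts in every library, no threshold on the fold change, 0.5 added to each count in ratios, the replicate number as a block, sex-linked expression as a covariate and each library left out were tried. Depth was 15687734 to 32082940 counts, and with at least 359 counts per gene and library the spread between 3 mice limited the precision.

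Genes named were the 6 members, genes of the pathway lists with an unadjusted p under 0.05, the most abundant gene of each list (per kilobase for pathway lists, in CPM for marker lists), and the 3 most alike genes of each member. *Cdh5*, *Pecam1*, *Foxo1*, *Angpt4*, *Lect2*, *Ptpn11*, *Pik3r1*, *Pf4*, *S100a8* and *S100a9* were named after their values were seen. Members and lists were chosen with earlier results of these data known. A gene that the rule names is not reported here. No set test was run.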

Additional observations from a re-analysis of the deposited data

How the results depend on the processing

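Of 138 values computed under other settings, 121 kept their direction and their side of the threshold or stayed near the reported count. Over the whole table, edgeR called 28 of 16568 genes, 522 of 31368 without the filter on low counts, and DESeq2 called 270 of 17318. With a library left out, edgeR called 4 to 22 genes (4 without GR+/+ replicate 2). Of the 6 genes, 1 was called without the filter and 1 by DESeq2, each time *Angpt1* (log2 fold change −0.78 in both, adjusted p = 0.012 and 0.0293). The fit without the filter gave the 6 genes nearly one SE, 0.203 to 0.232. Over all its alternatives the adjusted p of *Angpt1* was 0.012 to 0.432. No call was lost, as edgeR had called none of the 6.

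With a library left out, log2 fold changes were −0.87 to −0.64 for *Angpt1*, 0.080 to 0.52 for *Angpt2*, −0.33 to 0.093 for *Tek*, −0.35 to 0.16 for *Tie1*, −0.35 to −0.026 for *Ptprb* and −0.88 to −0.25 for *Svep1*. *Tek* turned to 0.09 without GR+/+ replicate 2 and 0.02 without GRdim/dim replicate 3, and *Tie1* to 0.16 without GR+/+ replicate 2 and 0.11 without GRdim/dim replicate 1. Log2 differences of ratios were 0.92 to 1.22 (*Angpt2* per *Angpt1*), −0.78 to −0.54 (*Angpt1* per *Tek*), −0.24 to 0.24 (*Tie1* per *Tek*) and −0.19 to 0.11 (*Ptprb* per *Tek*). *Tie1* per *Tek* turned to −0.087 without GR+/+ replicate 3 and −0.24 without GRdim/dim replicate 3, and *Ptprb* per *Tek* to 0.11 without GR+/+ replicate 3. The causes were not tested.

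The replicate numbers did not clearly pair the samples, though so few libraries cannot exclude a pairing. Deviations of same-numbered libraries correlated at 0.218, 0.036 and −0.055, and only number 1 correlated best with its own. With the replicate number as a block, 34 genes and 0 of the 6 were called, *Angpt1* was at −0.79 (edgeR adjusted p = 0.163) and *Svep1* at −0.52 (edgeR adjusted p = 0.350). The block lowered the SE of *Svep1* from 0.314 to 0.176 (unadjusted edgeR p from 0.156 to 0.0174) and that of *Tek* from 0.236 to 0.155.

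Precision was limited by 3 mice per genotype and not by counts. Genotype and sex were unbalanced, and there were no lungs without HS. Whole-tissue RNA does not show protein or the cell of origin.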

Other observations

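Genes of lung endothelium outside the Tie axis had log2 fold changes of either sign, and the genes named here were chosen after their values were seen. Of the 18 endothelial markers, 6 were higher and 12 lower. At an unadjusted edgeR p under 0.05, 1 was higher and 4 were lower. *Cldn5*, which encodes the endothelial tight junction protein claudin-5, was at 419, 442 and 370 CPM in GR+/+ and 535, 697 and 1119 CPM in GRdim/dim replicates 1, 2 and 3 (log2 fold change 0.94, edgeR adjusted p = 0.288, DESeq2 adjusted p = 0.0290). *Clec14a*, an endothelial C-type lectin, was at 429, 669 and 540 CPM in GR+/+ and 254, 349 and 226 CPM in GRdim/dim lungs (−0.98, edgeR adjusted p = 0.196, DESeq2 adjusted p = 0.00675). The groups of both genes did not overlap, which held for 7.77% of all genes with GRdim/dim higher and for 7.05% with GRdim/dim lower. Of the aerocyte markers, *Fibin* was lower without overlap (−0.82, edgeR adjusted p = 0.220, DESeq2 adjusted p = 0.0333). *Car4* (0.72, edgeR adjusted p = 0.398) and *Apln* (0.87, edgeR adjusted p = 0.386) had positive log2 fold changes with overlapping groups. The general capillary receptor gene *Aplnr* was higher without overlap (0.90, edgeR adjusted p = 0.360).

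Among mural cell markers, the pericyte laminin gene *Lamc3* was at 51.2, 38.3 and 12.7 CPM in GR+/+ and 9.54, 5.65 and 10.1 CPM in GRdim/dim lungs (−2.02, edgeR adjusted p = 0.171, DESeq2 adjusted p = 7.93e-05). *Rgs5*, another pericyte marker, was higher without overlap, as were 7.77% of all genes (0.67, edgeR adjusted p = 0.425). The platelet chemokine gene *Pf4* was at 6.45, 5.22 and 4.48 CPM in GR+/+ and 15.2, 7.27 and 17.8 CPM in GRdim/dim lungs (1.32, edgeR adjusted p = 0.244, DESeq2 adjusted p = 0.0157).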
